A study of Mus musculus with 24 samples.

Results

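Gene expression in the mediobasal hypothalamus of undisturbed control mice was compared between the start of the night and the start of the day. Mice of the background strain given as C57BL76J were sampled at ZT13 and at ZT1 (zeitgeber time, counted in hours from lights on), with 3 mice and 3 arrays at each time. The comparison was taken from the 6 arrays labelled control at those times, of 24 arrays in all, and covers every gene measured by a probe set with 1 gene symbol. The other control arrays are from ZT7 and ZT19. The remaining 12 arrays are from mice of the same strain under timed sleep restriction (TSR), which were kept awake by handling from ZT0 to ZT6 on 5 days, left undisturbed for the next 2, and put through 5 more days of the same schedule. The labels used here state no age, sex or day of sampling.

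Nearly every cell holds a molecular clock. The activators CLOCK and BMAL1 (gene Arntl) bind short DNA sequences called E-boxes and drive the Per and Cry genes, whose proteins then block the activators, so that their transcripts rise and fall once a day. A further loop runs through the repressors REV-ERB (Nr1d1, Nr1d2) and the activators of the ROR family, and output factors such as DBP carry the rhythm to other genes through sequences called D-boxes. The mediobasal hypothalamus holds the arcuate nucleus, where neurons sense hormones and nutrients and set hunger and energy use. In nocturnal mice the start of the night is also the start of activity and feeding, and the plasma level of the glucocorticoid hormone corticosterone peaks near that time.

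The sequences that bear most directly on this comparison are the promoters of 3 clock repressors that were higher at ZT13. Each is printed 5′ to 3′ along the gene's strand, as the 250 bases before a start site in RefSeq (build GRCm38.p6). Capitals mark the E-box CACGTG in Ciart and Per1 and the D-box TTANGTAA in Per3. The Ciart window (chr3:95882229-95882478, minus strand) holds E-boxes that begin at -116, -58 and -44, counted from the start site. The Per1 window printed (chr11:69098699-69098948, plus strand) holds an E-box at -166. The window of another Per1 start site (chr11:69099902-69100151) holds none. The Per3 window (chr4:151044666-151044915, minus strand) holds D-boxes at -205 and -158.
Ciart: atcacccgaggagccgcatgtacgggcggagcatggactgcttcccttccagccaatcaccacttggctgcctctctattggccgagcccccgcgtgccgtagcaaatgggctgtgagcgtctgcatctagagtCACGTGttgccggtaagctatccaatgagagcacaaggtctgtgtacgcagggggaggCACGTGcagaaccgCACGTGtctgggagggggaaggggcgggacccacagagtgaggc
Per1: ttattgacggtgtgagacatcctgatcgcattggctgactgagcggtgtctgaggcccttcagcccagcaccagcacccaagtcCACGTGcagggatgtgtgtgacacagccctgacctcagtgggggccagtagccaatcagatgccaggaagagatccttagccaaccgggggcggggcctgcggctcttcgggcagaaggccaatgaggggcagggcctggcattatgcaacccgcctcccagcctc
Per3: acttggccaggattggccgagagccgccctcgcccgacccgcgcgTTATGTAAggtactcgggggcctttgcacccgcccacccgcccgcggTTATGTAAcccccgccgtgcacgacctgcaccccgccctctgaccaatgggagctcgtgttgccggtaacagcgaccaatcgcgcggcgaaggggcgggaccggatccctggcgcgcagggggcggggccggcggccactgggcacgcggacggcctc

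Both strands were searched in windows of 250 bases before and 50 after each start, and a gene counted if any of its windows held the motif. The E-box was found in 8.09% of the 27025 genes with a window. It was found in 4 of the 8 clock repressors with one (Bhlhe41, Ciart, Cry1 and Per1), and in 3 of the 6 with one that rose. Of 6 risen clock outputs with a window, 1 held it, Tef. The windows of Dbp, Nr1d1, Cry2 and Usp2 held none. The D-box was found in 2.72% of all genes and in 1 of those 8 repressors, Per3. A match describes the letters in these windows and does not show binding.

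Levels are log2 signals, so that a difference of 1 is a 2-fold ratio. Differences are ZT13 minus ZT1 with the moderated standard error (SE) of limma, from 3 arrays against 3, and a gene passed at an adjusted p under 0.05 (Benjamini-Hochberg over all genes tested). P-values measure the spread between mice of the same group, pooled over the 20 arrays fitted, of which the 6 compared are only a part. Some of that spread may be technical. Of 11963 genes tested, 2971 passed (24.8%), of which 1529 were higher at ZT13 (12.8% of genes tested) and 1442 lower (12.1%). The median size of a difference that passed was 0.33. Of the genes that passed, 186 rose by at least 0.5 and 207 fell by as much, while 13 rose and 7 fell by at least 1. The 3 values of one time all lay on one side of the 3 of the other in 4805 genes (40.2%). A fit to the 6 arrays alone passed 2792 genes (23.3%), and 2603 genes passed in both fits. In bulk tissue, fewer cells of a type and less RNA per cell cannot be told apart.

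**Figure D1:**
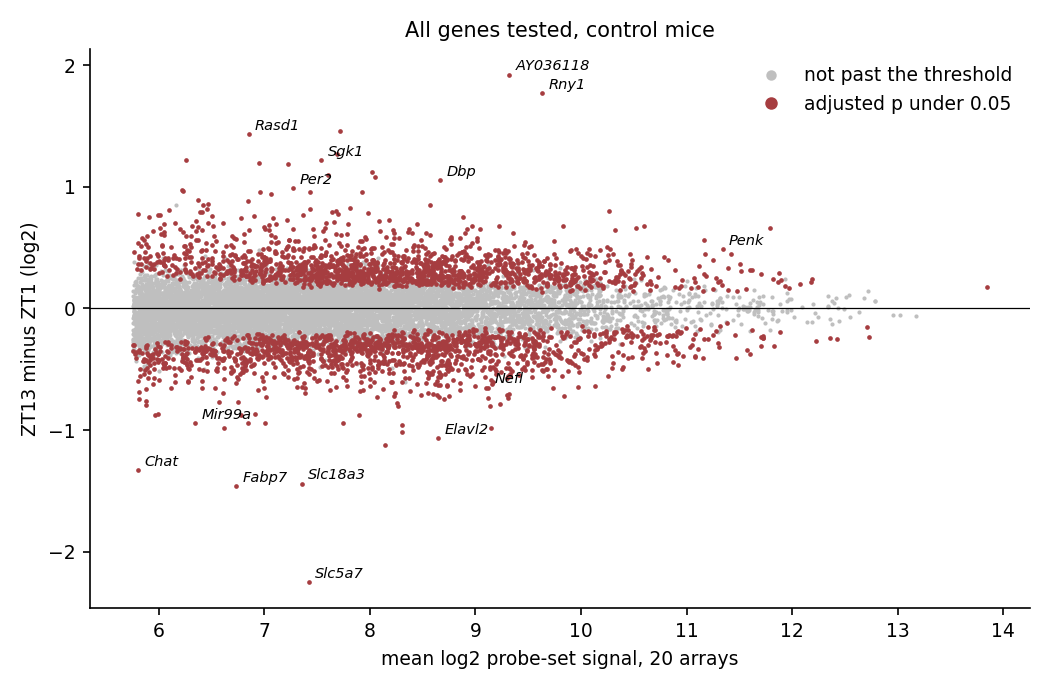
Difference between ZT13 and ZT1 in control mice (log2, vertical axis) against the mean log2 signal over 20 arrays (horizontal axis), 1 point a gene, with 2971 genes past the threshold in red. Most differences lie within 1 unit of 0; Slc5a7 is lowest at -2.25 and AY036118 highest at 1.92.

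Across the series, 4 arrays had a narrow distribution (interquartile range 2.12 to 2.25 log2 units against 2.96 to 3.29 in the other 20). None is among the 6 compared here, but they belong to control ZT19 and to TSR ZT1 and ZT13 and were left out of the fit. With them, 9 genes passed, at a median residual standard deviation (SD) of 0.36 in place of 0.11, and 415 genes had an unadjusted p under 0.05. Hypothalamic marker genes were measured at both times: the oxytocin gene Oxt at 11.01 to 11.23 and the somatostatin gene Sst at 12.22 to 12.47. Pomc, which defines an arcuate neuron class, lay at 5.44 to 6.02 in the 6 arrays, and its mean over the fitted arrays was under the filter of 5.76 that removed the dimmest 40 percent of genes. Hcrt, Pmch, Crh, Lepr, Dio2 and the pituitary hormone genes Tshb, Cga, Prl and Gh were also under that filter, so they have no test, and Agrp had no probe set of its own here.

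Of 10 clock repressors measured, 7 rose at the start of the night and 0 fell (70.0% passed, against 24.8% of all genes). The median difference was 0.45 over the list against 0.00 over all genes. The Period genes encode the core of the repressor complex. Per2 measured 7.02, 6.88 and 7.05 at ZT1 and 7.82, 8.04 and 8.05 at ZT13. Per1 measured 7.44, 7.74 and 7.62 against 8.56, 8.57 and 8.53, and Per3 7.15, 7.23 and 7.16 against 7.83, 7.84 and 7.86. In all 3 genes every ZT13 array lay above every ZT1 array. The differences were 0.99 ± 0.08 (SE) for Per2 (adjusted p = 1.3e-07), 0.95 ± 0.08 for Per1 (adjusted p = 1.4e-07) and 0.66 ± 0.06 for Per3 (adjusted p = 9e-07).

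Ciart, which encodes a repressor that binds the CLOCK complex and whose promoter is printed above with 3 E-boxes, measured 6.42, 6.72 and 6.63 at ZT1 and 7.55, 7.42 and 7.62 at ZT13. It rose by 0.94 ± 0.10 (adjusted p = 2e-06), with no overlap between the times. Nr1d1 measured 10.02, 10.10 and 9.96 against 10.51, 10.51 and 10.50, a rise of 0.48 ± 0.05 (adjusted p = 3.2e-06). Its ZT7 mean of 10.78 lay above both times, so the 2 times compared are not its extremes. Cry2 rose by 0.42 ± 0.07 (adjusted p = 0.00016) and Bhlhe41, which encodes a repressor of E-box genes, by 0.40 ± 0.10 (adjusted p = 0.0058). The other 3 repressors did not pass: Bhlhe40 differed by 0.18, Cry1 by 0.10 and Nr1d2 by 0.07.

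Of 4 activators measured, 1 fell and 0 rose. Rorb, a nuclear receptor of the ROR family, measured 8.42, 8.57 and 8.54 at ZT1 and 8.08, 8.23 and 8.28 at ZT13 (-0.32 ± 0.08, adjusted p = 0.0079). Arntl differed by 0.03 ± 0.11, Clock by -0.17 ± 0.08 and Rora by 0.11 ± 0.07, and none of these passed. Among 7 kinases and ubiquitin ligases that set the stability of clock proteins, 2 rose (28.6%, against 24.8% of all genes). These were Csnk1d, by 0.22 ± 0.07 (adjusted p = 0.022), and Gsk3b, by 0.22 ± 0.07 (adjusted p = 0.029). Csnk1d did not pass without ZT1 replicate 2, ZT13 replicate 2 or ZT13 replicate 3 (adjusted p 0.074 to 0.11), nor did Gsk3b without any of those or without ZT1 replicate 1 (0.053 to 0.12). The rest lay between -0.10 and 0.10.

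Of 18 clock outputs and E-box targets, 6 rose and 1 fell (38.9% passed, against 24.8% of all genes). Dbp, the output factor that binds D-boxes, measured 8.35, 8.38 and 8.29 at ZT1 and 9.26, 9.42 and 9.51 at ZT13. Its rise of 1.06 ± 0.08 (adjusted p = 1.8e-08) was the largest in the list, and all its ZT13 arrays lay above all its ZT1 arrays. Its relative Tef rose by 0.46 ± 0.07 (adjusted p = 0.00011), whereas Hlf of the same family differed by 0.16 ± 0.09 and did not pass. Usp2, a deubiquitinase, rose by 0.61 ± 0.08 (adjusted p = 2.3e-05) and the Krüppel-like factor gene Klf13 by 0.50 ± 0.06 (adjusted p = 1.5e-05). Dtx4, a ubiquitin ligase gene, fell by 0.33 (SE 0.06, adjusted p = 0.00075). Nfil3, which encodes a repressor of D-box genes, differed by 0.11 ± 0.10 and Wee1 by -0.05 ± 0.08.

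**Figure D2:**
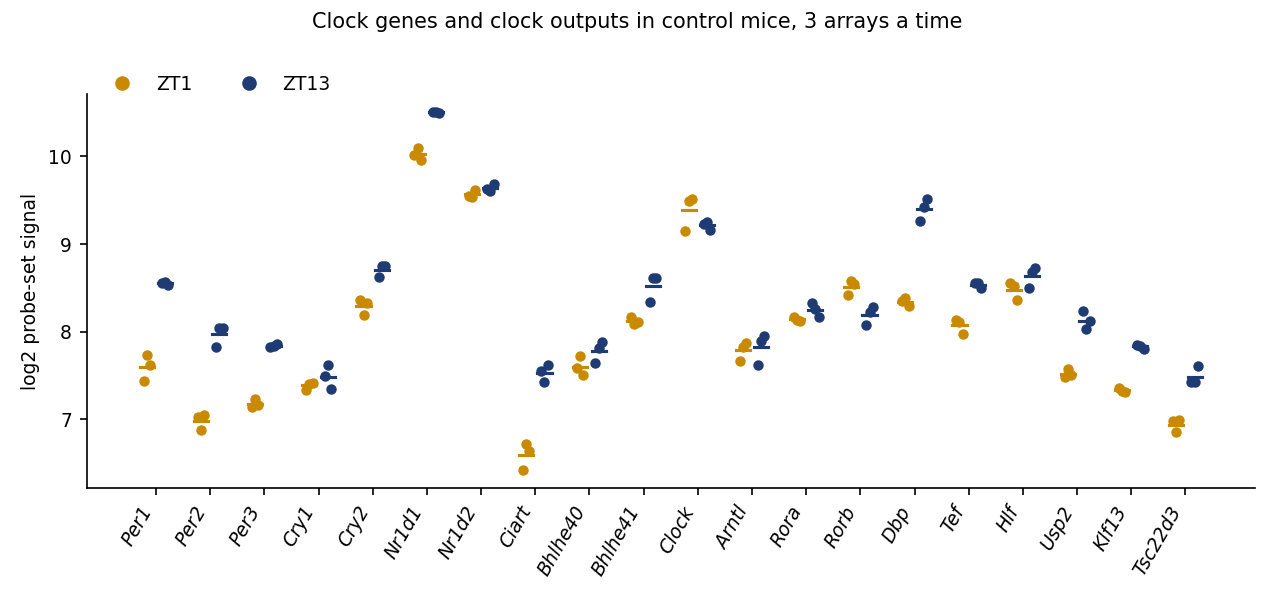
Log2 probe-set signal of clock genes and outputs in control mice at ZT1 (ochre) and ZT13 (blue), 1 point an array, with bars at the mean of 3. Per1, Per2, Per3, Ciart, Nr1d1 and Dbp show no overlap, whereas Cry1, Nr1d2, Arntl and Rora differ by 0.11 or less.

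Of 15 glucocorticoid-responsive genes tested, 8 rose and 1 fell, with a median of 0.30. Sgk1, a kinase gene induced by corticosteroids, measured 6.91, 6.98 and 6.88 at ZT1 and 7.88, 8.28 and 8.27 at ZT13. Zbtb16, a transcription factor gene induced by glucocorticoids, measured 7.35, 7.28 and 7.15 against 8.37, 8.33 and 8.37. The ZT13 arrays of both genes lay well clear of the ZT1 arrays, and their rises were 1.22 ± 0.10 (adjusted p = 4.6e-08) and 1.10 ± 0.08 (adjusted p = 2.4e-08). Fkbp5, a co-chaperone of the glucocorticoid receptor, measured 6.82, 6.96 and 6.86 against 7.35, 7.30 and 7.26 and rose by 0.42 ± 0.08 (adjusted p = 0.00087). Tsc22d3, also known as GILZ, rose by 0.55 ± 0.10 (adjusted p = 0.00059), and the NF-kappa-B inhibitor gene Nfkbia by 0.50 ± 0.07 (adjusted p = 8.2e-05). Per1 and Klf9 (0.30 ± 0.08, adjusted p = 0.0099) are in this list as well as among the clock genes. Klf9 did not pass without ZT1 replicate 3 or ZT13 replicate 3 (adjusted p 0.068 and 0.05). The half-site pair ACANNNTGT was found in a promoter window of 7.90% of all genes and of 1 of the 7 risen members with a window, Sgk1.

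Immediate early genes, which neurons switch on within minutes of firing, split. Of 22 tested, 7 rose and 4 fell, with a median of 0.17. Rasd1, a small G protein gene induced by dexamethasone and by light, measured 6.38, 6.52 and 6.38 at ZT1 and 7.85, 7.77 and 7.95 at ZT13. Its rise of 1.43 ± 0.10 (adjusted p = 9.8e-09) was the largest among the members of all 38 lists. The activity-dependent factor genes Npas4 (6.07, 6.0 and 5.86 against 6.66, 6.59 and 6.57), Nr4a1 and Egr3 rose by 0.63, 0.51 and 0.45. Fos, the best known member, measured 5.73, 6.27 and 5.81 against 6.18, 5.98 and 6.22, with overlap, and its difference of 0.19 ± 0.13 did not pass. Of 12 genes driven by FoxO factors or fasting, 4 rose and 0 fell (33.3% passed, against 24.8% of all genes). Txnip, whose protein limits glucose uptake, rose by 0.64 ± 0.10 (adjusted p = 0.00015), Klf15 by 0.40 and the insulin receptor substrate gene Irs2 by 0.27.

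**Figure D3:**
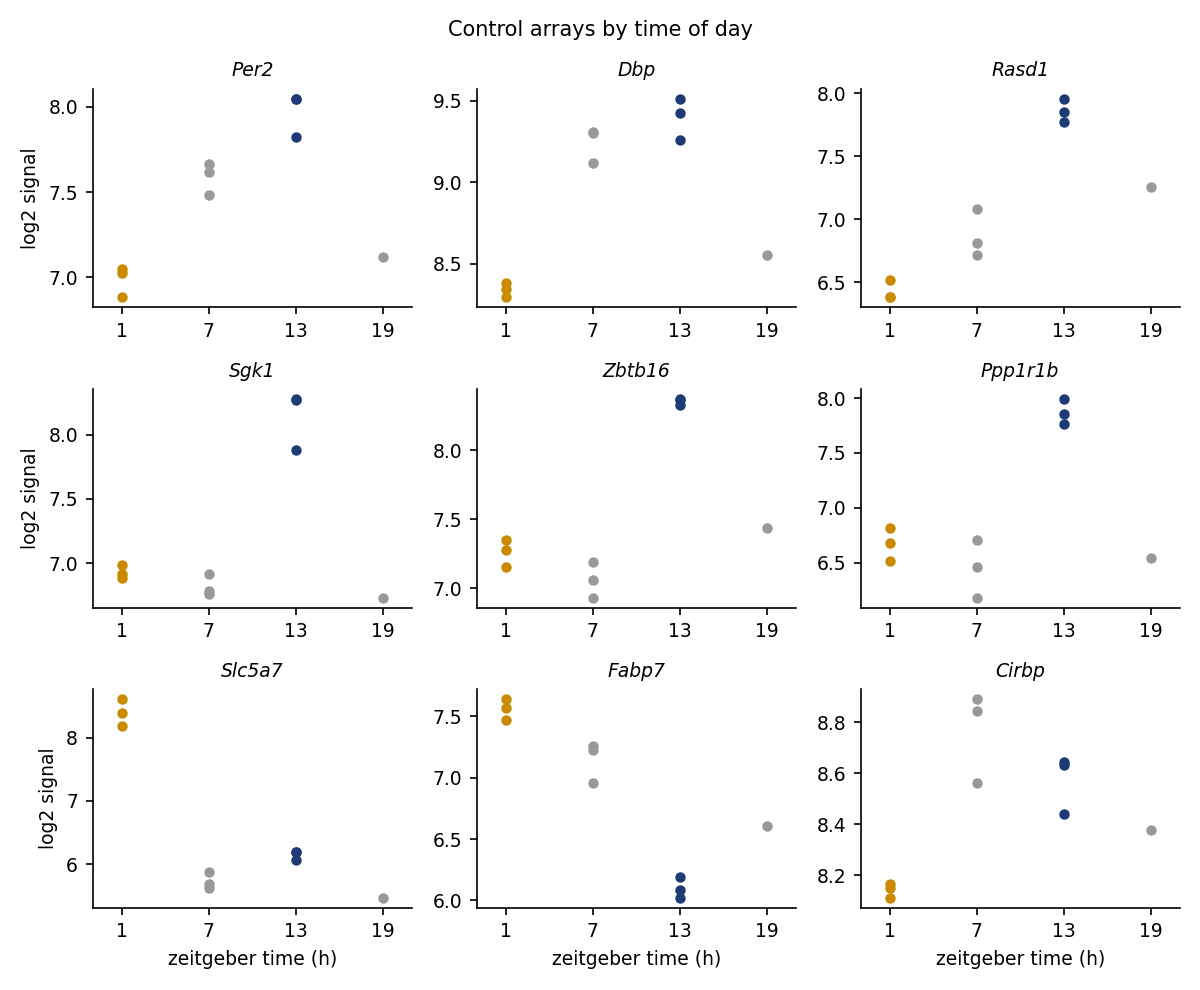
Log2 signal of 9 genes in control arrays at ZT1, ZT7, ZT13 and ZT19 (horizontal axis, h), 1 point an array; ZT19 has 1 array, since its other 2 were of narrow distribution. Sgk1, Zbtb16 and Ppp1r1b are high at ZT13 alone among these times, Per2 and Dbp are already raised at ZT7, and Slc5a7 is high at ZT1 alone.

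The levels at ZT7 separated these rises, as the plot of control arrays by time of day shows. Dbp had a ZT7 mean of 9.24 and Per2 of 7.59, nearer to their ZT13 than to their ZT1 level. Sgk1 stood at 6.82, Zbtb16 at 7.06 and Ppp1r1b at 6.45 at ZT7, each below its ZT1 mean. Over all 2971 genes that passed, the ZT7 mean lay between the means of the other times in 2147. It was nearer to the ZT13 mean in 1438 genes and nearer to the ZT1 mean in 1533.

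Heat shock genes encode chaperones that fold proteins. Of 20 tested, 8 fell, 1 rose and 11 did not pass (45.0% passed, against 24.8% of all genes), with a median of -0.22. Hsp90aa1 measured 12.41, 12.53 and 12.43 at ZT1 and 12.22, 12.22 and 12.20 at ZT13, a fall of 0.25 (SE 0.04, adjusted p = 0.00012). Hspa4l measured 10.31, 10.29 and 10.22 against 9.88, 9.95 and 9.98 (-0.34 ± 0.06, adjusted p = 0.00022), and the co-chaperone gene Dnaja1 9.81, 9.92 and 9.73 against 9.13, 9.39 and 9.56 (-0.46 ± 0.10, adjusted p = 0.0023). None of these genes overlapped between the times. The mitochondrial chaperone gene Hspd1 fell by 0.44 (SE 0.10, adjusted p = 0.0028). Dnajb5 was the member that rose (0.38 ± 0.07, adjusted p = 0.0006), and Hspa8, a constitutively expressed chaperone gene, differed by 0.06 ± 0.08. The heat shock element, searched as GAA 3 times in alternating orientation with gaps of 2 bases, was found in a promoter window of 0.662% of all genes and of 4 of 19 heat shock genes, Chordc1, Hspd1, Hspe1 and Hsph1.

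The cold-inducible RNA-binding protein genes, which respond to body temperature in the opposite sense, were higher at ZT13 in 2 of 3 members. Cirbp measured 8.16, 8.15 and 8.11 at ZT1 and 8.44, 8.63 and 8.64 at ZT13 (0.43 ± 0.08, adjusted p = 0.00074). Its highest level in controls was at ZT7, with a mean of 8.77. Rbm3 rose by 0.21 ± 0.06 (adjusted p = 0.013), which did not pass without ZT13 replicate 3 (adjusted p = 0.056). Among 19 chaperones and stress genes of the endoplasmic reticulum (ER), 8 fell and 2 rose (52.6% passed, against 24.8% of all genes). Their median was -0.06. The ER chaperone gene Hspa5 measured 10.48, 10.59 and 10.47 against 10.14, 10.28 and 10.23 (-0.30 ± 0.06, adjusted p = 0.0018), Sdf2l1 fell by 0.56, and Hyou1 rose by 0.30. Amino acid response genes went both ways, with 2 of 12 higher and 2 lower (33.3% passed, against 24.8% of all genes). Slc7a11, the cystine-glutamate antiporter gene, fell by 0.94 (SE 0.10, adjusted p = 3.2e-06), and the amino acid transporter gene Slc7a5 rose by 0.32.

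Among 9 appetite and related peptides, 3 rose and 0 fell (33.3% passed, against 24.8% of all genes). Penk, which encodes enkephalin, measured 11.12, 11.10 and 11.10 at ZT1 and 11.58, 11.58 and 11.63 at ZT13 (0.49 ± 0.04, adjusted p = 1.4e-07). Gal, which encodes galanin, a peptide that promotes feeding, measured 6.48, 6.53 and 6.42 against 6.83, 7.03 and 7.11 (0.51 ± 0.11, adjusted p = 0.0018). Sst rose by 0.21 ± 0.04 (adjusted p = 0.0012). The hunger peptide gene Npy measured 7.49, 7.0 and 7.16 against 7.37, 7.0 and 7.01, and its difference of -0.09 ± 0.16 did not pass. Cartpt, a satiety peptide gene, differed by -0.02 ± 0.12. The levels of both overlapped between the times.

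Of 17 receptors and signalling genes for feeding and metabolic hormones, 1 rose and 2 fell (17.6% passed, against 24.8% of all genes). Hcrtr2, the receptor gene for the wake-promoting orexins, measured 6.87, 7.03 and 6.94 at ZT1 and 6.02, 6.14 and 6.36 at ZT13 and fell by 0.77 (SE 0.11, adjusted p = 4e-05). Mc4r, the melanocortin receptor gene that curbs feeding, measured 7.12, 7.20 and 6.99 against 6.70, 6.61 and 6.86 (-0.38 ± 0.10, adjusted p = 0.0066). In both genes every ZT13 array lay below every ZT1 array. Of 11 marker genes of arcuate and ventromedial neurons 0 passed, Kiss1 (-0.28 ± 0.13), Th (-0.13 ± 0.08), Tac1 (0.32 ± 0.12) and Fezf1 (0.24 ± 0.10) among them.

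Markers of neighbouring hypothalamic nuclei moved in both directions. Of 14 genes known from the suprachiasmatic nucleus, the master clock, 5 rose and 4 fell (64.3% passed, against 24.8% of all genes). Vipr2, the receptor gene for the clock peptide VIP, measured 6.96, 7.31 and 7.24 at ZT1 and 7.95, 7.96 and 7.90 at ZT13 (0.76 ± 0.11, adjusted p = 5.2e-05). The prokineticin receptor gene Prokr2 rose by 0.70 ± 0.12 (adjusted p = 0.00025), and Rasl11b fell by 0.49 (SE 0.09, adjusted p = 0.00045). Vip itself differed by 0.31 ± 0.17 and did not pass. Avp, which encodes vasopressin, fell by 0.19 (SE 0.06, adjusted p = 0.033), but did not pass in the fit to the 6 arrays (adjusted p = 0.063), nor without ZT1 replicate 1 or 3 or ZT13 replicate 1 or 2 (0.054 to 0.14). Of 9 markers of the paraventricular and supraoptic nuclei, 4 rose and 1, Avp, fell (55.6% passed, against 24.8% of all genes). Of the 4, Arnt2, Otp and Magel2 did not pass without ZT13 replicate 3 (adjusted p = 0.076, 0.061 and 0.084). Trh, which encodes the peptide that drives the thyroid axis, measured 10.16, 10.30 and 10.20 against 10.44, 10.66 and 10.75 (0.40 ± 0.08, adjusted p = 0.0019). Of 5 lateral hypothalamic markers, 2 fell, among them Lhx9 by 0.51 (SE 0.10, adjusted p = 0.0009).

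Tanycytes and ependymal cells line the third ventricle and pass hormones between blood, fluid and neurons. Of 8 of their markers tested, 4 rose and 1 fell (62.5% passed, against 24.8% of all genes), with a median of 0.32. Crym, which encodes a thyroid hormone-binding protein, measured 6.01, 5.77 and 5.93 at ZT1 and 7.0, 6.77 and 6.87 at ZT13 (0.97 ± 0.17, adjusted p = 0.00033). The ependymal genes Rarres2 (6.10, 6.16 and 6.16 against 6.95, 6.89 and 6.86) and Ccdc153 rose by 0.76 ± 0.09 and 0.66 ± 0.09. Gpr50, an orphan receptor gene of tanycytes, fell by 0.47 (SE 0.12, adjusted p = 0.0086). The summed level of the list was 10.19 in each ZT1 array and 10.33 to 10.39 in the ZT13 arrays, and its part in other differences was not tested. Of 7 genes of thyroid hormone signalling, 4 rose and 0 fell (57.1% passed, against 24.8% of all genes). The receptor gene Thra rose by 0.24 ± 0.06 (adjusted p = 0.0093), a value with 1 array restored as described under processing; with decimals as deposited it did not pass (adjusted p = 0.94).

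The largest fall was in genes of cholinergic neurons. Slc5a7, the high-affinity choline transporter gene, measured 8.61, 8.40 and 8.19 at ZT1 and 6.06, 6.19 and 6.2 at ZT13, a 4.77-fold lower level (-2.25 ± 0.11, adjusted p = 1.6e-10). The vesicular acetylcholine transporter gene Slc18a3 measured 8.27, 7.92 and 8.07 against 6.85, 6.58 and 6.51, a difference of -1.44 ± 0.12 (adjusted p = 1e-07). All ZT1 arrays lay above all ZT13 arrays in both genes. The acetylcholine-synthesizing enzyme gene Chat measured 6.47, 6.40 and 6.52 against 5.26, 5.08 and 5.06. It passed the filter of 5.76 only through the groups in which it is high, since its control means at ZT13 (5.14) and ZT7 (4.76) lay below it, so these levels are a description. The neurotrophin receptor gene Ngfr fell by 0.95 (SE 0.10, adjusted p = 3.2e-06) and the muscarinic receptor gene Chrm2 by 0.78 (SE 0.09, adjusted p = 3.8e-06). Apart from Chat, 4 of the 5 tested markers of forebrain cholinergic neurons fell and 0 rose, and Lhx8, a factor of that lineage, differed by -0.25 ± 0.12. Slc5a7 was low at ZT7 as well (mean 5.73) and in the 1 typical ZT19 array (5.46), so the ZT1 mice stood apart from the rest of the control day.

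Markers of striatal projection neurons went the other way, with 6 of 7 tested higher at ZT13 and 0 lower (85.7% passed, against 24.8% of all genes). Ppp1r1b, which encodes a dopamine-regulated phosphatase inhibitor, measured 6.82, 6.68 and 6.52 at ZT1 and 7.99, 7.77 and 7.85 at ZT13 (1.20 ± 0.11, adjusted p = 8e-07). The phosphodiesterase gene Pde10a rose by 0.63 ± 0.08 and the dopamine receptor gene Drd1 by 0.70 ± 0.11 (adjusted p = 2.4e-05 and 0.0001), and Penk is in this list too. Neither class of neuron is a main cell of the labelled tissue. The summed level of the cholinergic list, Chat included, was 10.40 to 10.53 in the ZT1 arrays and 9.35 to 9.38 in the ZT13 arrays. That of the striatal list was 11.65 to 11.67 and 12.17 to 12.21. Both lists separated the times in every array, and the part that neighbouring forebrain tissue has in these or other differences was not tested. Of 10 thalamic and cortical markers, 2 rose and 4 fell. Camk2a, the kinase gene of excitatory synapses, rose by 0.50 ± 0.07, and the thalamic factor gene Tcf7l2 fell by 0.67 (SE 0.08). Of the synaptic genes with the largest rises, the dendrite protein gene Ddn rose by 1.19 ± 0.12 and the kinase gene Ptk2b by 1.08 ± 0.08 (adjusted p = 9.1e-07 and 1.8e-08).

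**Figure D4:**
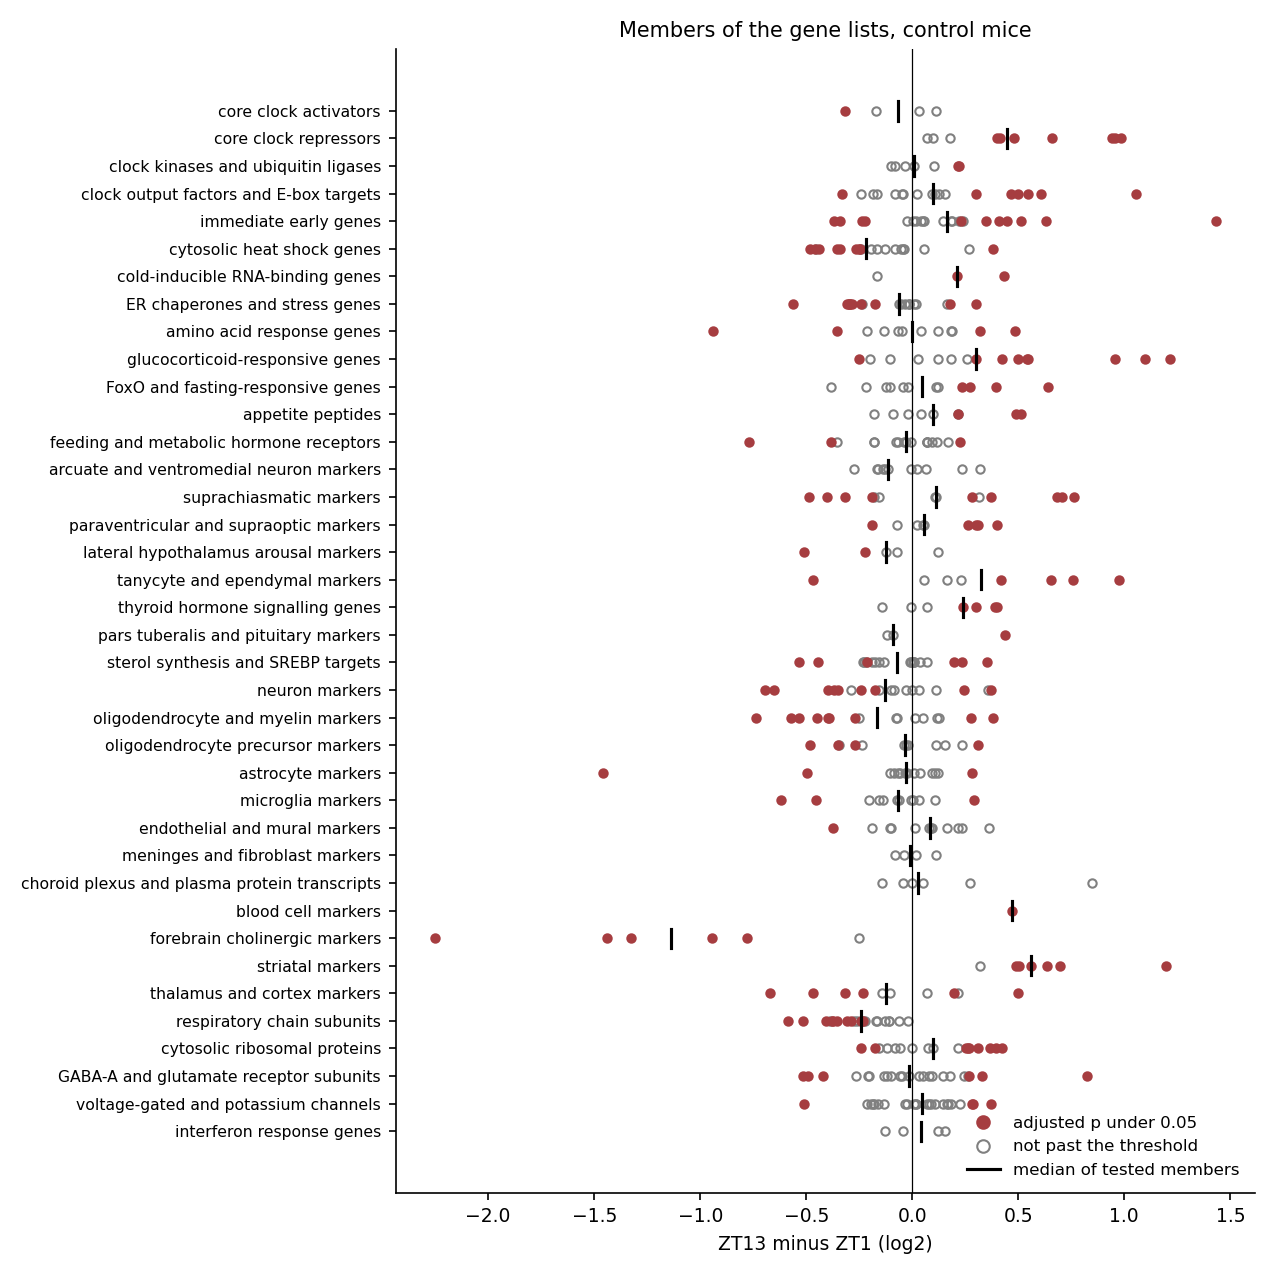
Difference between ZT13 and ZT1 in control mice (log2, horizontal axis) for the tested members of 38 gene lists, 1 point a gene, with filled red points past the threshold and black bars at the list median. Clock repressors (median 0.45), striatal markers (0.56) and cholinergic markers (-1.14) lie farthest to one side among lists of at least 4 tested members. The cholinergic median includes Chat, which the text sets apart. Arcuate markers hold 0 genes past the threshold.

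Of 18 general neuron markers, 2 rose and 7 fell, with a median of -0.13. Nefl, a neurofilament subunit gene of large axons, measured 9.70, 9.80 and 9.60 at ZT1 and 8.88, 9.14 and 9.13 at ZT13 (-0.65 ± 0.07, adjusted p = 5.6e-06). Slc17a6, the glutamate transporter gene of hypothalamic excitatory neurons, fell by 0.37 (SE 0.06, adjusted p = 0.00037), whereas Rbfox3, which encodes the nuclear antigen NeuN, rose by 0.37 ± 0.07 (adjusted p = 0.0005). The GABA-synthesizing enzyme gene Gad2 differed by -0.03 ± 0.05 and Map2 by -0.08 ± 0.06. The summed neuronal level was 15.09 to 15.11 at ZT1 and at most 15.07 at ZT13.

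Oligodendrocytes make myelin, and 7 of 16 of their markers fell while 2 rose (56.2% passed, against 24.8% of all genes). Ugt8a, which makes the myelin lipid galactosylceramide, measured 9.13, 9.44 and 9.31 at ZT1 and 8.36, 8.72 and 8.59 at ZT13 (-0.73 ± 0.11, adjusted p = 0.00011). Aspa, Ermn and Mal fell by 0.57, 0.53 and 0.45, and Mog by 0.40. Mobp (0.38 ± 0.09, adjusted p = 0.0033) and Mag (0.28 ± 0.08, adjusted p = 0.01) rose, and the major myelin protein gene Mbp differed by -0.08 ± 0.06. Mag did not pass without ZT1 replicate 2 or ZT13 replicate 2 (adjusted p 0.056 and 0.06). The list thus held genes of myelin moving both ways, and its summed level was 13.36 to 13.40 at ZT1 and 13.17 to 13.26 at ZT13.

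Astrocyte markers passed in 3 of 14 cases (21.4%, against 24.8% of all genes), with 1 higher and 2 lower. Their summed level overlapped between the times (14.34 to 14.37 and 14.35 to 14.37). Fabp7, the brain fatty acid-binding protein gene of astrocytes and their precursors, measured 7.47, 7.64 and 7.57 at ZT1 and 6.02, 6.19 and 6.09 at ZT13. Its fall of 1.46 (SE 0.09, adjusted p = 4.9e-09) was the largest decrease after that of Slc5a7, and its ZT7 mean was 7.15. The water channel gene Aqp4 fell by 0.50 (SE 0.07, adjusted p = 6.1e-05) and the angiotensinogen gene Agt rose by 0.28 ± 0.06 (adjusted p = 0.0017). The glutamate transporter gene Slc1a3 differed by 0.01 ± 0.05 and Gfap by 0.11 ± 0.13. Of 12 microglia markers, 1 rose and 2 fell, so the share that passed was close to the 24.8% of all genes. The protease gene Ctss (9.55, 9.42 and 9.28 against 8.83, 8.70 and 8.84) and the fractalkine receptor gene Cx3cr1 fell by 0.62 ± 0.07 and 0.45 ± 0.09 (SE). The summed level of the microglia list was 11.16 to 11.26 at ZT1 and 10.98 to 11.02 at ZT13. Of 12 vascular markers 1 fell, Cldn5, which, like Cd68, the microglia marker that rose, did not pass without ZT13 replicate 3 (adjusted p = 0.12 and 0.11). Of 4 meningeal markers 0 passed, and of 6 choroid plexus and plasma protein transcripts 0.

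Of 23 subunits of the mitochondrial respiratory chain tested, 10 fell and 0 rose (43.5% passed, against 24.8% of all genes). Their median was -0.24, and all 23 differences lay below 0, between -0.58 and -0.02. Ndufa4 measured 11.39, 11.36 and 11.31 at ZT1 and 10.97, 10.95 and 10.93 at ZT13 (-0.41 ± 0.05, adjusted p = 1.7e-05). Ndufc1, a subunit of complex I, measured 9.11, 9.14 and 9.16 against 8.42, 8.55 and 8.68 (-0.58 ± 0.10, adjusted p = 0.00022). The times did not overlap in either gene. Ribosomal protein genes split, with 7 of 17 higher and 2 lower (52.9% passed, against 24.8% of all genes). Rpl13 rose by 0.39 ± 0.07 and Rpl10 fell by 0.24 (SE 0.04). Many ribosomal genes have near-identical copies, whose signals these probe sets may share.

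Of 23 GABA-A and glutamate receptor subunits, 3 rose and 3 fell (26.1% passed, against 24.8% of all genes). Gabre, an epsilon subunit gene known from the hypothalamus, measured 7.55, 7.58 and 7.52 at ZT1 and 8.22, 8.53 and 8.38 at ZT13 (0.83 ± 0.17, adjusted p = 0.0015). The beta subunit gene Gabrb2 fell by 0.49 (SE 0.07, adjusted p = 4.1e-05) and the kainate receptor gene Grik2 by 0.52 (SE 0.07, adjusted p = 5.5e-05). Of 24 channels, 3 rose and 1 fell (16.7% passed, against 24.8% of all genes): Kcnc2, a channel gene of fast-firing neurons, by 0.51 (SE 0.07, adjusted p = 2.7e-05). Of 20 sterol synthesis genes and SREBP targets, 3 rose and 3 fell (30.0% passed, against 24.8% of all genes). The regulator genes Srebf1 and Srebf2 rose by 0.35 ± 0.08 and 0.23 ± 0.06, and the cholesterol carrier gene Stard4 fell by 0.53 (SE 0.08). Of 4 interferon response genes 0 passed.

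Several of the largest differences were in non-coding transcripts. AY036118 measured 9.06, 8.83 and 8.66 at ZT1 and 10.51, 10.93 and 10.88 at ZT13 (1.92 ± 0.14, adjusted p = 1.8e-08). The small Y RNA gene Rny1 measured 9.52, 9.37 and 9.06 against 10.86, 11.15 and 11.25 (1.77 ± 0.25, adjusted p = 4.4e-05). In both, all ZT13 arrays lay above all ZT1 arrays, which the rule that named them required. Gm10874, Gm10644, the vault RNA gene Vaultrc5 and the small nucleolar RNA gene Snord14e rose by 1.45, 1.27, 1.22 and 1.12.

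Large falls were also seen outside the lists. Elavl2, a neuronal RNA-binding protein gene, measured 9.07, 9.02 and 8.88 at ZT1 and 7.71, 8.0 and 8.07 at ZT13 (-1.06 ± 0.12, adjusted p = 4.3e-06). Vamp7, a vesicle fusion gene, fell by 1.12 (SE 0.12, adjusted p = 3.5e-06), with ZT13 replicate 1 at 7.01 and the other ZT13 arrays at 7.68 and 7.66. Stxbp6, S100a10, Zfp804a and the axon guidance gene Sema3a fell by 1.01, 0.99, 0.96 and 0.94, and Tacr3, the neurokinin B receptor gene, by 0.99. Every ZT13 array lay below every ZT1 array in these 7 genes, which the rule that named them required. Elovl7, a fatty acid elongase gene, fell by 0.88 (SE 0.09).

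The microRNA gene Mir99a was among the 15 largest falls, at 6.50, 6.48 and 6.62 at ZT1 and 5.66, 5.53 and 5.58 at ZT13 (-0.94 ± 0.10, adjusted p = 1.9e-06). The times did not overlap, a condition for its place among these falls. Its guide strand, miR-99a-5p, lies at chr16:77598940-77598961 (plus strand, GRCm38.p6) and is printed 5′ to 3′ with the seed, bases 2 to 8, in capitals, since the seed pairs with target transcripts.
miR-99a-5p: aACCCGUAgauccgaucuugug
The probe set is annotated to the gene and does not tell the mature microRNA from its precursor.

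The same clock times were compared in sleep-restricted mice, with no arrays shared, and the difference between the 2 time effects was tested in the same fit. After narrow arrays were left out, TSR ZT1 and TSR ZT13 each had 2 arrays. The time effect differed between the conditions in 3058 genes (25.6%), and 907 genes (7.58%) passed for ZT13 against ZT1 within sleep-restricted mice. With 24 arrays, 2 genes differed, and 390 had an unadjusted p under 0.05. Without TSR ZT1 replicate 1, 1981 genes differed. Of the 2971 genes that passed in controls, 672 had the same sign in sleep-restricted mice. Same signs were not counted over all genes tested. Of those that passed in both conditions, 73 moved in the same direction and 426 in opposite directions.

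The rise of the clock repressors at ZT13 was seen in controls and differed from that in sleep-restricted mice. In sleep-restricted mice Per1 differed between the times by -0.19, Per2 by -0.08 and Per3 by -0.21, and none passed (adjusted p = 0.26, 0.69 and 0.11). The conditions differed in all 3 (adjusted p for the difference 5e-06, 1.3e-05 and 6.9e-06). Dbp went from a rise of 1.06 in controls to -0.38 in sleep-restricted mice (adjusted p for the difference 1.7e-07), and Nr1d1 from 0.48 to -0.40 (6.5e-07). Opposite signs were common among the genes that passed in controls. The conditions differed in 3 of 9 appetite peptides and 3 of 17 feeding receptors, against 25.6% of all genes. As single examples chosen from several lists, the values were Trh 0.40 against -0.87, Gal 0.51 against -0.40, Mc4r -0.38 against 0.52 and Cck -0.40 against 0.90, each with an adjusted p for the difference of 0.00071 or less.

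Other differences were of like size in both conditions. The kinase gene Ptk2b rose by 1.08 in controls and differed by 0.84 in sleep-restricted mice, Klf9 by 0.30 and 0.26, and the myelin gene Mal by -0.45 and -0.39. The tests of the difference gave adjusted p = 0.16, 0.85 and 0.76, which do not show that the effects are equal. Among the cholinergic genes, Ngfr differed by -0.95 and -0.68 (adjusted p for the difference 0.25), whereas Slc5a7 differed by -2.25 and -0.66 (5.5e-06). Slc5a7 was at 7.81 and 8.20 in the 2 sleep-restricted ZT13 arrays, above the 3 control arrays of that time.

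**Figure D5:**
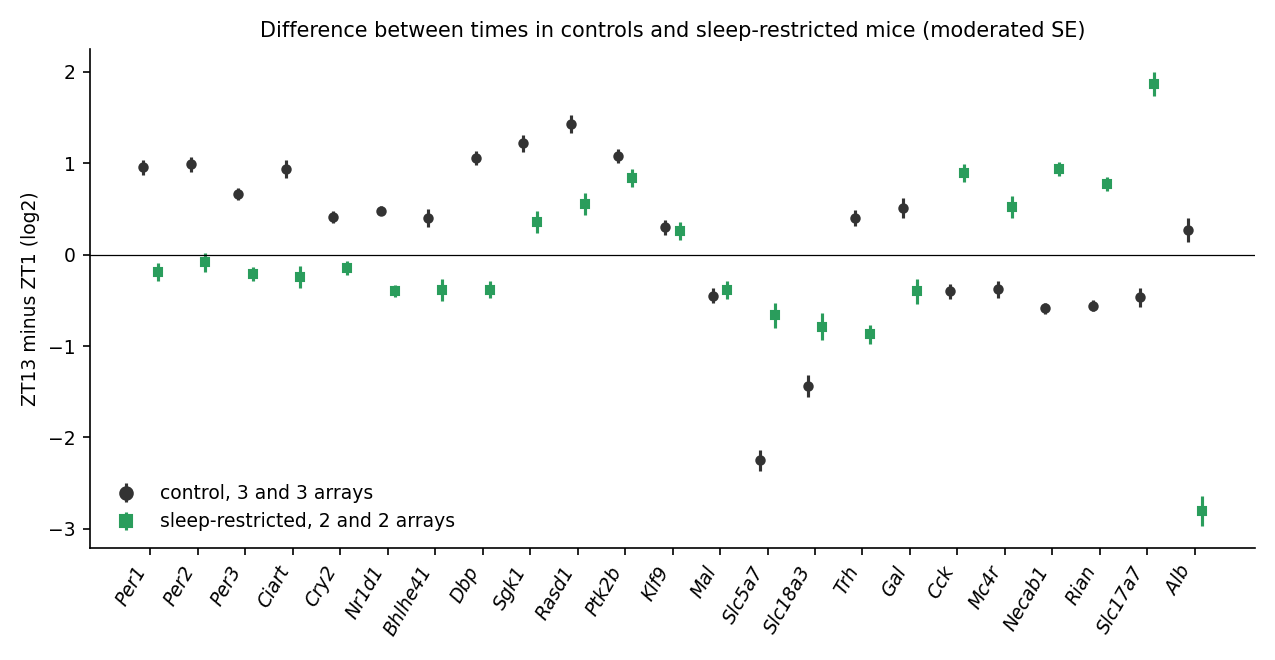
Difference between ZT13 and ZT1 (log2, vertical axis) in controls (dark circles, 3 arrays a time) and sleep-restricted mice (green squares, 2 arrays a time) with bars of 1 moderated SE. The Per genes, Ciart and Dbp are above 0 in controls. In sleep-restricted mice they are below 0, but of these only Dbp passed there, and the bar of Per2 crosses 0. Ptk2b, Klf9 and Mal lie close together.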

How the data were processed

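Total RNA from the mediobasal hypothalamus was isolated with Trizol and hybridised to Affymetrix arrays, per the labels' protocols. The authors deposited log2 probe-set signals, made with Affymetrix Expression Console per the submitters' processing notes, neither version nor summarization being given in the sources used here. In the deposited table some log2 values had lost the place of the decimal point, and 2825 of 853344 cells (0.331%) were restored by moving the point only. A further 81 cells that a spreadsheet had turned into dates and 8 others were set to missing. In the named probe sets of the 6 arrays compared, 164 cells were restored.

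Probe sets with exactly 1 symbol were kept (21789 of 35556), with the highest mean for each gene, and genes under the 40th percentile (5.76) were removed. limma 3.58.1 in R 4.3.3 was fitted with 8 group means to the 20 arrays with an interquartile range of at least 2.5, with a trend on the mean, 2-sided. The procedure was tested on simulated data. No scan date was used, and the number of arrays limits the precision. Promoter and microRNA sequences came from RefSeq tables, and 21698 probe sets matched its genes.

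The comparison, the members and the 38 lists were chosen with earlier results of these data known. Named genes are the 15 largest rises and falls among genes that passed with no overlap, all clock list members, up to 4 members of each other list by smallest p, the 10 smallest p-values of the difference against sleep-restricted mice, and 15 fixed genes. Chrm2, Lhx8, Mog, Mag, Mobp, Mbp, Hspd1, Hspa8, Oxt, Gad2, Map2, Slc1a3, Gfap and the genes of the closing observations fall outside this rule and were named after their values were seen. Only some of the genes the rule gives are named. Alternatives covered the arrays fitted, normalization, filter, moderation, weights, replicate numbers, decimals and thresholds; keeping the date cells was added after the data were seen.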

Additional observations from a re-analysis of the deposited data

Results flagged for a closer look

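Results were set apart here where the time effect differed between controls and sleep-restricted mice by the test of the difference, which 3058 genes passed. Values are the control difference (ZT13 minus ZT1) minus the sleep-restricted difference, in log2 units. Among clock genes the value was 1.15 for Per1, 1.07 for Per2, 0.87 for Per3, 1.19 for Ciart, 0.88 for Nr1d1, 0.56 for Cry2, 0.78 for Bhlhe41 and 1.44 for Dbp, all higher in controls. The transcripts AY036118, Gm10874 and Gm10644 gave 2.87, 2.28 and 1.97, and A530032D15Rik gave 1.72. Pltp, which encodes a phospholipid transfer protein, gave 1.01.

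Alb, the plasma albumin gene, gave 3.07. It measured 5.51 to 5.86 at ZT1 and 5.94 to 6.14 at ZT13 in controls, while the sleep-restricted means were 9.91 at ZT1 and 7.11 at ZT13. The value thus rests on high sleep-restricted arrays, and the control difference of 0.27 did not pass. Slc17a7, the glutamate transporter gene of cortical and thalamic neurons, gave -2.34, with sleep-restricted means of 6.14 at ZT1 and 8.01 at ZT13. Necab1 gave -1.53 and the imprinted non-coding gene Rian -1.33, both lower at ZT13 in controls and higher in sleep-restricted mice. Whether other tissue was present in single dissections was not tested.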

How the results depend on the processing

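The count of 2971 genes for ZT13 against ZT1 in controls stayed within 1.5 times under every alternative except the fit to all 24 arrays, which passed 9 genes, and an adjusted p under 0.01, which passed 1641. The count of 3058 genes for the difference against sleep-restricted mice became 2 with all 24 arrays and 1693 at 0.01. The narrow arrays raised the median residual SD from 0.11 to 0.36. Leaving out 1 array at a time gave 2130 to 2535 genes for the first count and 1981 to 2964 for the other, the lowest without TSR ZT1 replicate 1. Quantile normalization gave 3569 and 3633 genes. Deviations of arrays of the 2 times correlated at 0.353, 0.26 and 0.0415 where the replicate number was the same. Where it differed, they correlated at -0.333 to 0.20. The numbers were not taken as pairs in the main fit, and whether they stand for anything shared between arrays was not tested. A fit with a replicate block passed 2944 and 2911 genes. Of 254 genes followed singly, 175 passed, and 0 of these reversed their direction. Some that did not pass changed sign, 10 of them without ZT1 replicate 1. Of the 175 that passed, 145 passed in every alternative that tested them but the fit to 24 arrays, the stricter threshold included. With each array left out, 148 passed. Without ZT13 replicate 3, Arnt2, Otp, Magel2, Adipor1, Cpt1a, Hcn2, Kcnd3, Cd68 and Cldn5 did not pass (adjusted p 0.061 to 0.19), so that counts of the short lists that hold them are smaller. With 24 arrays 7 of the 175 passed, among them Rasd1, Per2, Ppp1r1b and Fabp7. For the first count, a fit to the typical control arrays alone passed 2036 genes (68.1% of the 2971 passed there too), and other filters, probe set choices, moderation, weights and cell repairs gave 2593 to 4126. Genes near or below the filter of 5.76 log2 units, such as Chat and Fos, rest on dim probe sets.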

Other observations

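Genes of motile cilia, which ependymal cells use to move cerebrospinal fluid, were mostly higher at ZT13 in controls. This group was put together after the values were seen, so its counts are a description. Of 44 tested genes with cilium-related names, 28 passed as higher and 1 as lower, with a median of 0.41. Over all genes tested, 12.8% passed as higher and 12.1% as lower. Some of the cilium genes are dim: the ZT1 means of Cfap43 (5.75) and Hydin (5.76) lay at the filter of 5.76. Cfap43 measured 5.55, 6.0 and 5.70 at ZT1 and 6.54, 6.76 and 6.86 at ZT13, Hydin 5.79, 5.82 and 5.67 against 6.43, 6.59 and 6.35, and the dynein gene Dnah6 5.74, 5.66 and 6.07 against 6.73, 6.75 and 6.67. Foxj1, the master factor of motile cilia, differed by 0.23 ± 0.12 and did not pass. In sleep-restricted mice Dnah6 differed by 0.62, Cfap43 by 0.46 and Hydin by 0.16, and Hydin did not pass there (adjusted p = 0.40). The conditions differed in Hydin and Cfap43 (adjusted p for the difference 0.009 and 0.043), while Dnah6 did not pass that test (0.32).

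Some single genes known from striatal neurons were picked for their rise at ZT13, so they stand for no group. Gng7 rose by 0.85 ± 0.10, Baiap2 by 0.78 ± 0.08 and Kcnip2 by 0.72 ± 0.10. Akap5 rose by 0.72 ± 0.09 and Pde1b by 0.62 ± 0.06. The summed level of the striatal list was higher in the same arrays, and its part in these differences was not tested; of 10 thalamic and cortical markers 2 rose and 4 fell. Akap5 differed by 0.80 in sleep-restricted mice and Kcnip2 by -0.01. Among neurofilament genes, Nefl and Nefm fell by 0.65 and 0.69, and Nefh differed by -0.29 ± 0.11. Of 84 tested microRNA genes, 3 passed as higher, Mir485 among them (0.42 ± 0.08), and 11 as lower, among them Mir128-1 (-0.50 ± 0.12). Of 276 zinc finger genes, 23 passed as higher and 37 as lower. Beside these microRNA and zinc finger counts, 12.8% of all genes tested passed as higher and 12.1% as lower.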
